A study of Homo sapiens with 12 samples.

Results

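Histone genes were examined by RNA-seq in Ovcar8, an established human ovarian cancer cell line of the high-grade serous type. Members were taken from the raw count table as protein-coding genes whose symbol starts with HIST1H, HIST2H, HIST3H or HIST4H, plus 9 named variant genes. This gave 80 of 58735 genes, of which 71 were replication-dependent and 9 were variants (H1F0, H1FX, H2AFX, H2AFZ, H2AFV, H2AFY, H2AFJ, H3F3A and H3F3B). The rule itself uses no measured value. The 12 libraries formed 4 groups of 3. The groups called shTMLHE 1 and shTMLHE 2 carried either of 2 short hairpin RNAs against TMLHE, an enzyme of carnitine synthesis, together with CCNE1 overexpression. A further group had CCNE1 overexpression alone, and the last was the control line without it. CCNE1 encodes cyclin E1. All cells were transduced with lentivirus, kept in 3 µg/ml puromycin for 2 to 3 days and grown in 5% serum. No group with a non-targeting hairpin was analysed here, so each hairpin was set against CCNE1 overexpression alone, and both hairpin comparisons share those libraries. Nothing in the labels states that the 3 replicates of a group came from different cultures, so p-values cover only the spread among these libraries, which may be technical.

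Replication-dependent histone genes supply the core and linker histones that package newly copied DNA. They are transcribed in S phase, with the coactivator NPAT, a substrate of cyclin E with CDK2. Their mRNAs normally carry no poly(A) tail and end instead just after a conserved stem-loop that is bound by SLBP. Variant genes mostly lie outside the histone clusters, although H2AFJ lies near HIST4H4 on chromosome 12. They are mostly transcribed throughout the cell cycle and mostly make spliced or polyadenylated mRNAs. Their proteins replace the canonical ones at particular places in chromatin. The labels name a NEBNext Ultra 2 RNA library kit. The sources used here do not give whether poly(A) RNA was selected.

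The stem-loop is the feature that separates the classes at the RNA level, so the stem-loops of the histone genes described most were read from the annotated GENCODE 29 transcripts on GRCh38. The search used a 16-base core with a 6-base stem and a 4-base loop. The core is in capitals, with 5 bases on each side in lower case, and the coordinates are those of the core.
HIST3H2A: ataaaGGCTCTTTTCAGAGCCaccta
HIST1H2AC: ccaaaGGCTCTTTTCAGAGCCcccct
HIST1H2BD: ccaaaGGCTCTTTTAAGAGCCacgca
HIST1H2BH: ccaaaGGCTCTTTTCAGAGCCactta
HIST1H3H: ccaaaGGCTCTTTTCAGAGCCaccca
HIST1H4E: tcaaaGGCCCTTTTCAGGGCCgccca
HIST1H4I: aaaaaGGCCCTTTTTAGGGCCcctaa
H2AFX: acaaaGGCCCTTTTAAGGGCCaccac

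The HIST3H2A core lies at chr1:228457369-228457384 on the minus strand and the H2AFX core at chr11:119094898-119094913 on the minus strand. The others lie on the plus strand of the chromosome 6 cluster, at chr6:26124669-26124684 for HIST1H2AC, chr6:26158587-26158602 for HIST1H2BD and chr6:26252055-26252070 for HIST1H2BH. Those of HIST1H3H, HIST1H4E and HIST1H4I lie at chr6:27810516-27810531, chr6:26205001-26205016 and chr6:27139654-27139669. All 8 lie within annotated exons of these genes. H2AFX was the variant gene with the stem-loop, and this gene is known to make both a stem-loop mRNA and a longer polyadenylated one. Counted in transcripts that hold the core, the annotated models run at most 1044 bases past it in H2AFX and 390 in HIST3H2A. They run 1128 bases past it in HIST1H2AC, 1640 in HIST1H2BH, 1022 in HIST1H4E, 769 in HIST1H3H, 212 in HIST1H4I and 39 in HIST1H2BD. The models of HIST1H2BK, HIST1H1C and HIST2H2AC, also among the most counted or most changed members, hold no match.

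Of the 71 replication-dependent genes, 60 had at least 1 count and 11 were at 0 in every library. Over all libraries together, a count of 0 allows a level of up to 0.015 CPM (the count scaled to library size; 3 counts), for counting error alone. The 11 included the testis-specific HIST1H1T, HIST1H2AA and HIST1H2BA. They also included HIST1H2AD, HIST1H2AK, HIST1H2AM, HIST1H3D, HIST2H3A and HIST2H3PS2, which share 86.3 to 100% of their 50-base windows with other genes. The 0.015 CPM limit does not cover these, because their reads may have been assigned elsewhere or dropped. In 31 genes no library passed 10 counts, and 10 genes had at least 10 counts in every library. All 9 variants had counts. The classes summed to 19223 counts (replication-dependent) and 444760 counts (variant) over all libraries. The 55 genes of the chromosome 6 cluster (HIST1) held 75.3% of the replication-dependent counts, the 3 HIST3 genes 20.4% and the 12 HIST2 genes 4.05%. HIST3H2A alone held 19.7%, HIST1H2BK 17.4% and HIST1H1C 10%, so 3 genes made up 47.2%. Most members thus contributed little to the class. HIST1H2BK shares 74.1% of its 50-base windows with other H2B genes and with H2BFS, so its reads may be split among these copies, and the sources used here do not give how reads with several matches were treated. It was the only tested member of 17 replication-dependent genes with such a copy.

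**Figure D1:**
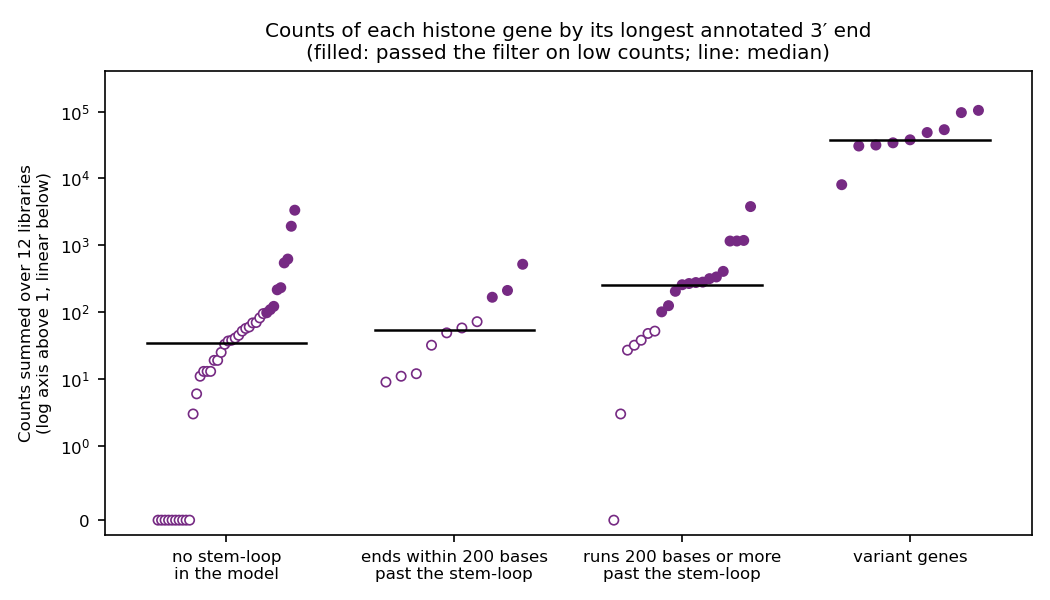
Counts of each of the 80 genes summed over the 12 libraries (y axis, logarithmic above 1), by where the annotated transcript ends relative to the stem-loop, with variants at the right; each point is a gene, filled if it passed the filter on low counts, and lines mark medians. The class at the left holds models without a match to the stem-loop pattern, whatever their length. Distances past the stem-loop count only transcripts that hold it. The medians were 35, 53.5 and 257 counts for the replication-dependent classes from left to right and 37795 for variants.

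Genes were grouped by whether their annotated model held a match to the stem-loop pattern and how far it ran past that match. The threshold of 200 bases past the stem-loop was chosen after the data were seen. In 40 replication-dependent genes the model held no match, and 9 of these passed the filter on low counts. Not all of the 40 are short models, since HIST1H2AG has 2250 bases and HIST1H2BJ 950. The search required a fully paired stem, so a stem-loop that departs from the pattern would be missed. In 10 the model ended within 200 bases past the match, counted only in transcripts that hold it, and 3 passed. Of these 3, HIST1H2BD and HIST1H2BC also have annotated exons far past the match, out to chr6:26171349 and chr6:26114873. This class is therefore not free of longer models. In 21 the model ran 200 bases or more past the match, and 14 passed. The plot of counts by gene model shows the median total at 257 counts in the last class, against 53.5 and 35 in the others. Levels per kilobase (kb) did not follow that order, with medians of 0.418 CPM per kb in the last class, against 0.566 and 0.494 CPM per kb in the others.

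Depth was 14054101 to 21457503 counts per library. CPM were computed from TMM-scaled library sizes, where TMM is a scaling that aligns the bulk of genes between libraries. The TMM factors were 1.107 to 1.121 with shTMLHE 1 and 1.221 to 1.228 with shTMLHE 2, against 0.847 to 0.853 with CCNE1 overexpression and 0.86 to 0.864 in control. Total counts in place of TMM shifted the median log2 fold change of all tested genes by 0.39 for shTMLHE 1 minus CCNE1, by 0.53 for shTMLHE 2 minus CCNE1, by -0.02 for CCNE1 minus control and by -0.13 between the hairpins. Changes are given relative to that median, and directions that this scaling turns are named. As a check of the labels, CCNE1 was at 1270 ± 49 CPM with shTMLHE 1, 847 ± 21.2 CPM with shTMLHE 2 and 1000 ± 34 CPM with CCNE1 overexpression, against 33.1 ± 1.28 CPM in control (SD, n = 3 each). TMLHE was at 0.956 ± 0.286 CPM with shTMLHE 1 and 0.482 ± 0.241 CPM with shTMLHE 2, against 15.7 ± 2.69 CPM with CCNE1 overexpression and 16.5 ± 1.62 CPM in control. Both follow the labels. The Müllerian marker PAX8 was at 69.9 to 150 CPM in group means and KRT8 at 2410 to 4010 CPM, while MUC16 was at 0 in every library and WT1 was at 0.34 CPM or less in each group mean. The epithelial markers EPCAM and CDH1 were also low, with group means of 2.51 to 3.27 CPM and 1.18 to 3.74 CPM. The 5 leukocyte and 4 endothelial markers were at 2.38 CPM or less in each group mean, with PTPRC and CD3E at 4 counts each in all. Of the 5 fibroblast markers, DCN was at 0 in every library, whereas COL1A1 was at 1550 CPM with shTMLHE 1 and 1230 CPM with shTMLHE 2, against 605 CPM with CCNE1 overexpression and 879 CPM in control. PDGFRB was at 35 CPM with shTMLHE 1, against 19.6 CPM with CCNE1 overexpression and 45.4 CPM in control. Both COL1A1 and PDGFRB rose with each hairpin against CCNE1 overexpression, while COL1A2 and LUM did not pass the filter on low counts. The labels name a cell line, and the part of any other cells in the histone levels was not tested.

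Summed over the class, replication-dependent genes were at 95.1, 88.3 and 82.3 CPM in the shTMLHE 1 libraries and at 69.1, 63.7 and 67.5 CPM in the shTMLHE 2 libraries. They were at 101, 106 and 92.2 CPM with CCNE1 overexpression and at 142, 145 and 141 CPM in control. The control libraries were above all others, the shTMLHE 2 libraries were below all others, and the shTMLHE 1 and CCNE1 libraries overlapped. As a share of all counts the order differed: 0.0091 to 0.0106% with shTMLHE 1 and 0.00781 to 0.00842% with shTMLHE 2, against 0.00785 to 0.00898% with CCNE1 overexpression and 0.0121 to 0.0125% in control. On that scale shTMLHE 1 was above CCNE1 overexpression and shTMLHE 2 overlapped it.

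Variant genes summed to 1860, 1870 and 1920 CPM in the shTMLHE 1 libraries and 1770, 1840 and 1780 CPM in the shTMLHE 2 libraries. They summed to 2630, 2550 and 2620 CPM with CCNE1 overexpression and 2710, 2870 and 2770 CPM in control. All 6 hairpin libraries were below all 6 others, and CCNE1 overexpression was below control in every library. As a share of counts the variants took 0.21 ± 0.00209% with shTMLHE 1 and 0.22 ± 0.00512% with shTMLHE 2, against 0.221 ± 0.00384% with CCNE1 overexpression and 0.239 ± 0.00623% in control (SD, n = 3), so shTMLHE 2 and CCNE1 overexpression overlapped there. Per kb, the variants stood above the replication-dependent genes by a ratio of 5.44 ± 0.449 with shTMLHE 1 and 6.7 ± 0.409 with shTMLHE 2, against 7.29 ± 0.862 with CCNE1 overexpression and 5.62 ± 0.036 in control. In bulk RNA, fewer cells in S phase and less histone RNA per cell cannot be told apart.

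**Figure D2:**
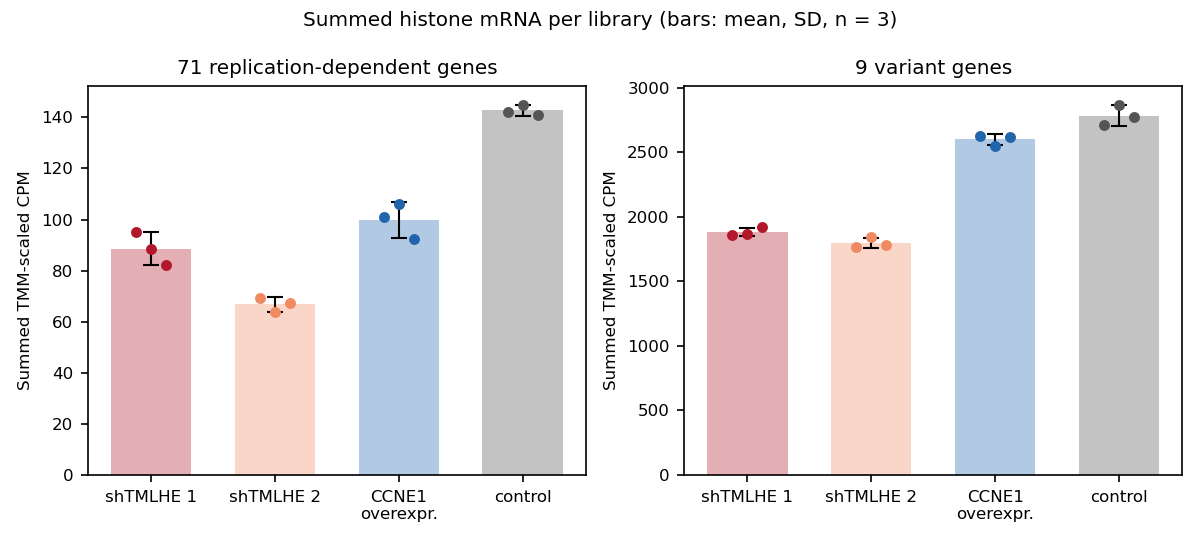
Summed TMM-scaled CPM (y axis, from 0) of the 71 replication-dependent genes (left) and the 9 variant genes (right) in the 4 groups; points are libraries, bars are means and error bars are SD (n = 3). The replication-dependent sum averaged 88.5, 66.8, 99.6 and 143 CPM and the variant sum 1880, 1800, 2600 and 2780 CPM, in the order of the groups from left to right.

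Among the families of the replication-dependent class, summed H1 genes were at 8.22 ± 1.3 CPM with shTMLHE 1 and 5.8 ± 0.47 CPM with shTMLHE 2, against 14.9 ± 2.98 CPM with CCNE1 overexpression and 21.3 ± 2.18 CPM in control (SD, n = 3). H2A genes were at 22.8 ± 1.46 and 21.5 ± 1.73 CPM with shTMLHE 1 and 2, against 30.7 ± 4.66 CPM with CCNE1 overexpression and 56.6 ± 2.71 CPM in control. H2B genes were at 38.8 ± 2.36 and 26.6 ± 1.66 CPM with shTMLHE 1 and 2, against 34.6 ± 4.38 CPM with CCNE1 overexpression and 45.7 ± 2.42 CPM in control. The H2A sum thus spread more widely between groups than H2B, but most of that spread lay in a single gene. HIST3H2A was at 10.9 CPM with shTMLHE 1, against 20.2 CPM with CCNE1 overexpression and 45.8 CPM in control. Likewise HIST1H1C held most of the H1 sum. It was at 6.97 and 4.6 CPM with shTMLHE 1 and 2, against 12 CPM with CCNE1 overexpression and 18.3 CPM in control. H3 genes were at 6.09 ± 0.753 and 4.31 ± 0.144 CPM with shTMLHE 1 and 2, against 7.06 ± 0.429 CPM with CCNE1 overexpression and 4.73 ± 0.447 CPM in control. H4 genes were at 12.6 ± 3.31 and 8.58 ± 0.681 CPM with shTMLHE 1 and 2, against 12.3 ± 2.33 CPM with CCNE1 overexpression and 14.4 ± 2.33 CPM in control. H3 was the family whose control libraries were below those with CCNE1 overexpression, and the H4 libraries of these groups overlapped.

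Genes were then tested in each comparison. A filter on low counts (edgeR's filterByExpr) kept 15378 genes, among them all 9 variants and 26 of the 71 replication-dependent genes. In the 45 that were left out no library exceeded 23 counts, and 8 of the 26 had a group mean under 10 counts. The 26 are therefore a selection of the higher members, and each count over them is a description. Every adjusted p given here is from edgeR's quasi-likelihood test with Benjamini-Hochberg adjustment over the 15378 genes, with a gene called at adjusted p under 0.05. Fold changes across all tested genes followed GC content, with Spearman coefficients across genes of -0.379 for CCNE1 minus control, -0.369 for shTMLHE 1 minus CCNE1 and -0.637 for shTMLHE 2 minus CCNE1. Many results are therefore also given from a GC-adjusted fit, in which the trend over GC content and transcript length was removed. The part of that trend in the differences between groups was not tested.

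With CCNE1 overexpression against control, 5 of the 26 replication-dependent genes fell and 0 rose, beside 19.1% of all tested genes lower and 25.1% higher. The 5 that fell were HIST3H2A, HIST1H2BK, HIST1H1C, HIST1H2BH and HIST1H4I, and the share that fell was near that of all genes. At an unadjusted p under 0.05, 2 were higher, DESeq2 and limma-voom called 1 higher each, and limma on log2(FPKM + 0.1) called 3. The median log2 fold change was -0.14 over the 26 and 0.05 over all tested genes. Without control replicate 1 the count called was 3, and without control replicate 2 it was 8, of which 3 were higher. Of the 9 variants, 3 rose (H2AFZ, H2AFV, H3F3A) and 4 fell (H1F0, H1FX, H2AFJ, H3F3B), with a median of 0.04, beside 44.2% of all genes called. In the GC-adjusted fit the variants were 2 higher and 6 lower, where 20.8% of all genes were higher and 16% lower.

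With shTMLHE 1 against CCNE1 overexpression, 60.7% of all tested genes were called, 30.4% higher and 30.3% lower. Of the 26 replication-dependent genes 6 rose and 6 fell, and total-count scaling gave 10 higher and 5 lower, where it called 51% of all genes higher and 16.2% lower. Of the 9 variants 2 rose and 7 fell, against 3 higher and 6 lower on total counts, and 0 higher and 7 lower in the GC-adjusted edgeR fit, which called 22.4% of all genes higher and 33.3% lower. At an unadjusted p under 0.05 that last fit also gave 0 higher, and DESeq2, without the adjustment, gave 1 higher. The median log2 fold change was -0.14 for the replication-dependent genes and -0.55 for the variants, beside 0.03 for all genes.

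With shTMLHE 2 against CCNE1 overexpression, 73% of all tested genes were called, 36.8% higher and 36.2% lower. Of the 26 replication-dependent genes 3 rose and 9 fell, and total counts gave 7 higher and 5 lower. Upper-quartile scaling gave 5 higher and 7 lower, where it called 40.6% of all genes higher and 33.1% lower. Of the 9 variants 1 rose and 7 fell, against 4 higher and 3 lower on total counts, where 54.1% of all genes were higher and 22.4% lower. The medians were -0.4 for the replication-dependent genes and -0.48 for the variants, beside 0.03 for all genes. Called changes of at least 2-fold were fewer, with 7 replication-dependent genes and 2 variants for shTMLHE 1 minus CCNE1, beside 19.3% of all genes, and 9 and 3 for shTMLHE 2 minus CCNE1, beside 38.1%.

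**Figure D3:**
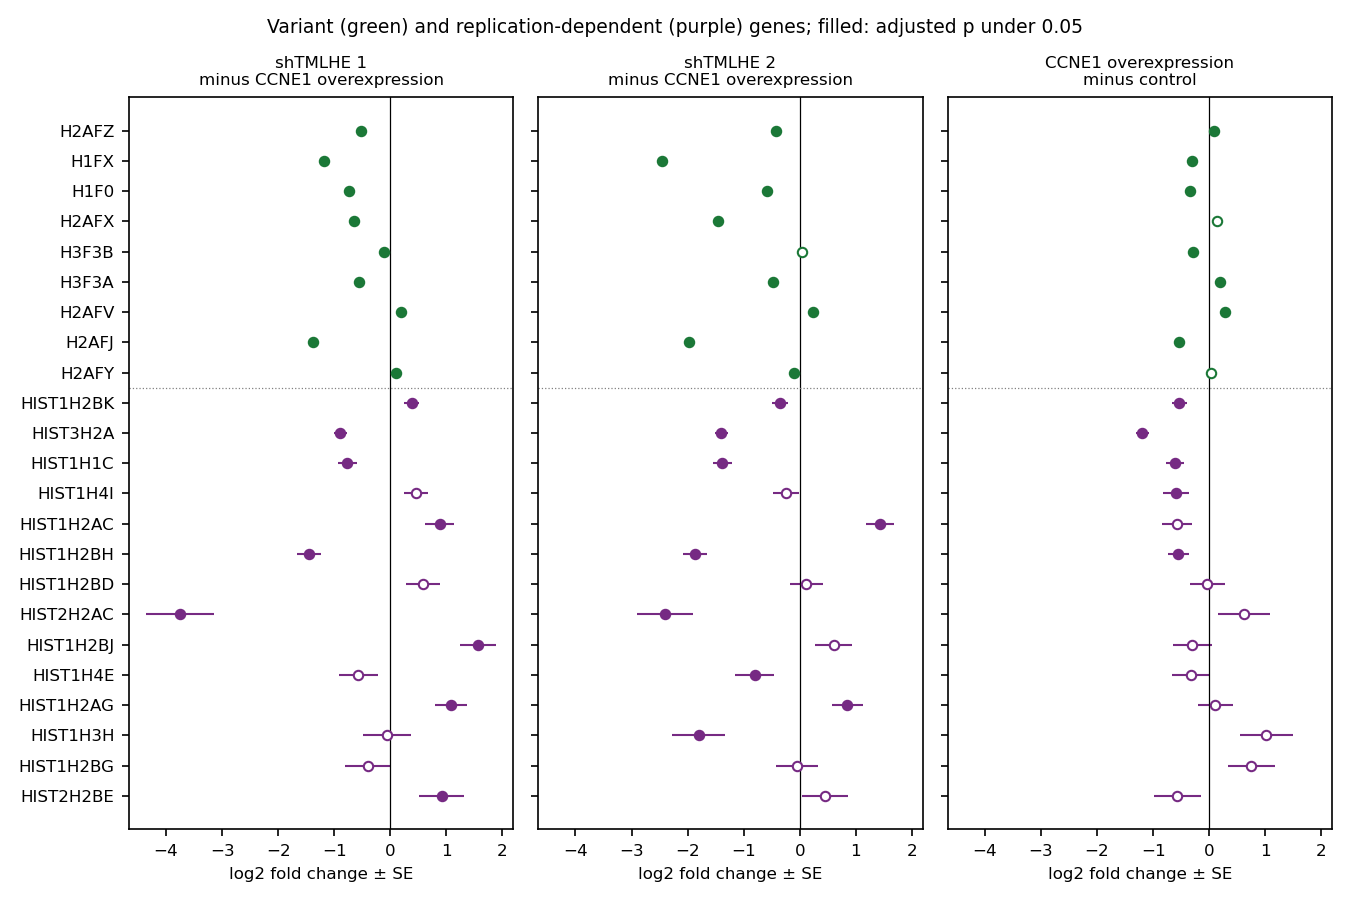
log2 fold change ± SE (x axis) of the 9 variant genes (green) and 14 replication-dependent genes (purple) in 3 comparisons, with filled points at adjusted p under 0.05. The lowest points are HIST2H2AC with shTMLHE 1 (-3.75) and H1FX with shTMLHE 2 (-2.46), and HIST1H2AC and HIST1H2AG stand above 0 with both hairpins.

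Per kb, the variant levels in control ran from H1FX (337 ± 25.5 CPM per kb) through H2AFZ (252 ± 5.3), H1F0 (155 ± 10.1), H2AFX (124 ± 2.61), H3F3B (91.4 ± 0.528) and H3F3A (64.4 ± 1.64) to H2AFV (27.3 ± 0.295), H2AFJ (24.8 ± 2.75) and H2AFY (8.62 ± 0.0369), all in CPM per kb (SD, n = 3). H2AFV and H2AFJ overlapped, and no other neighbours did. The H2AFY level is divided by an exon length of 17730 bases, summed over all its annotated exons. In the same way H3F3B is divided by 6134 bases and H3F3A by 3146, although their longest transcripts have 2787 and 1863 bases. The order of the variants therefore depends on the length used. With shTMLHE 2 the order was H2AFZ (201 ± 6.51 CPM per kb), H1F0 (80.5 ± 2.11), H3F3B (77.5 ± 2), H3F3A (52.9 ± 1.42), H1FX (49.6 ± 1.44), H2AFX (49.3 ± 4.59), H2AFV (39.4 ± 0.618), H2AFY (8.2 ± 0.11) and H2AFJ (4.3 ± 0.665). There H1F0 overlapped H3F3B, and H2AFX overlapped both H1FX and H3F3A. H1FX thus stood above the other variants in control and below H2AFZ, H1F0, H3F3B and H3F3A with shTMLHE 2 (its libraries overlapped those of H2AFX there), and H2AFJ changed places with H2AFY at the foot of the order.

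**Figure D4:**
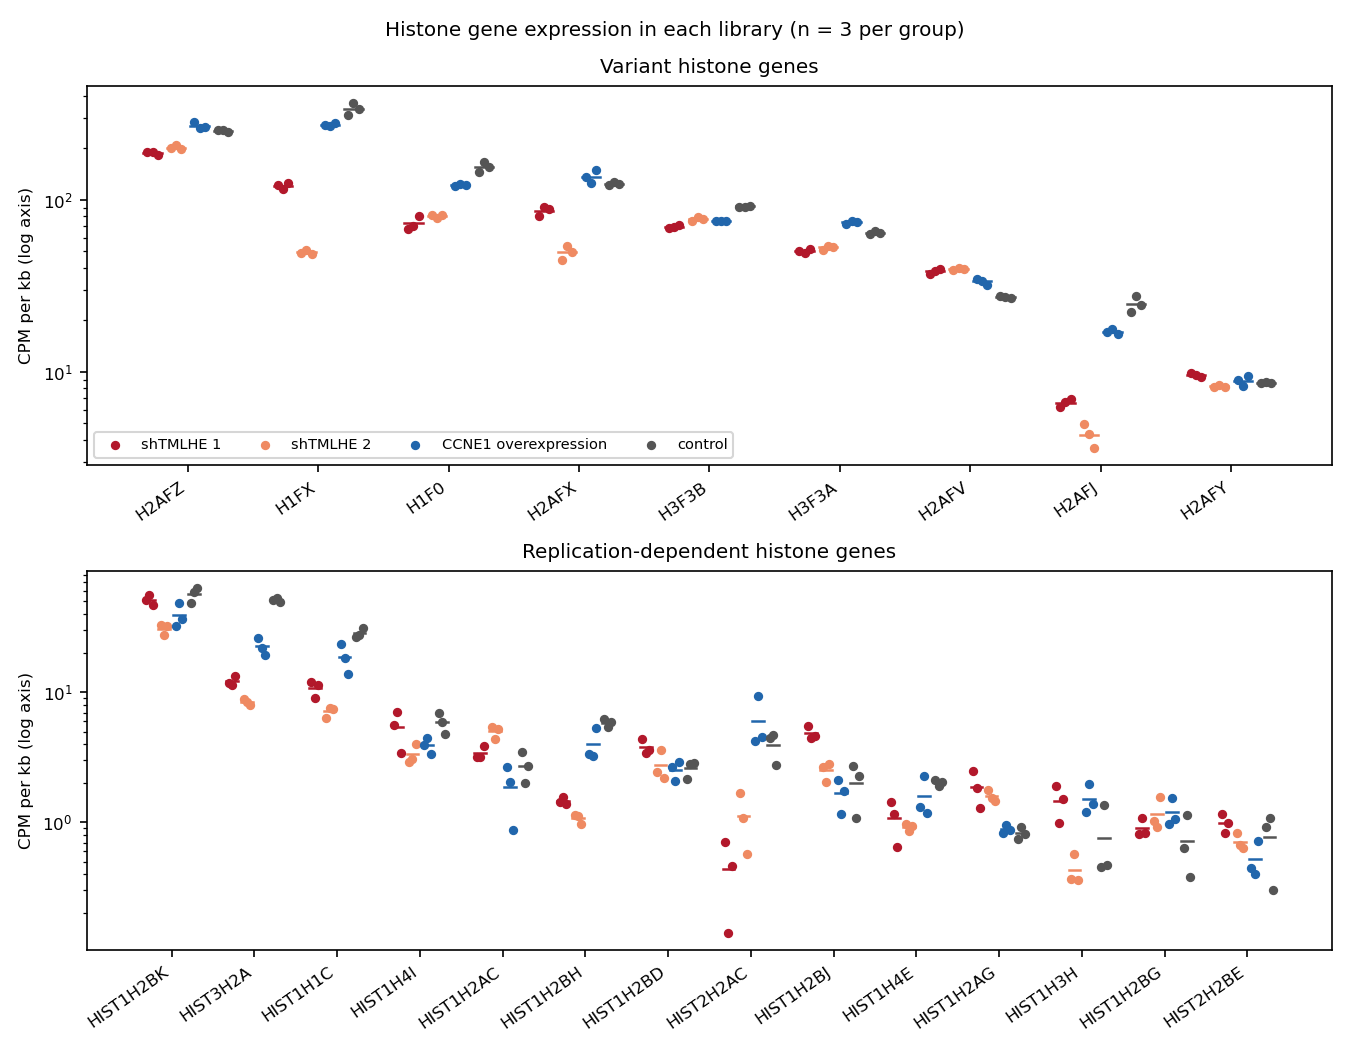
CPM per kb (y axis, logarithmic) of the 9 variant genes (top) and 14 replication-dependent genes (bottom) in each library; points are libraries and short lines are group means (n = 3). H1FX, H2AFX, H2AFJ, HIST3H2A and HIST1H2BH lie lower with both hairpins than with CCNE1 overexpression or in control, and the libraries do not overlap.

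The variant linker histones, which bind DNA where it enters and leaves the nucleosome, fell in all 3 comparisons. H1FX (GRCh38 chr3:129314771-129316277, minus strand), a linker histone made independently of replication, was at 183, 174 and 188 CPM with shTMLHE 1 and at 74.1, 77.2 and 73 CPM with shTMLHE 2. It was at 409, 404 and 421 CPM with CCNE1 overexpression and at 472, 549 and 504 CPM in control. The 4 groups did not overlap. Its fitted log2 fold change was -1.18 ± 0.04 (SE) with shTMLHE 1 (adjusted p = 2.58e-24) and -2.46 ± 0.05 with shTMLHE 2 (adjusted p = 3.18e-34), both against CCNE1 overexpression. It was -0.31 ± 0.04 for CCNE1 overexpression minus control (adjusted p = 1.2e-07). H1FX has a GC content of 68.6%. After adjustment for GC content and length, the changes were -0.52 (adjusted p = 7.47e-16) with shTMLHE 1 and -0.82 (adjusted p = 1.92e-21) with shTMLHE 2. The antisense gene H1FX-AS1 overlaps 22.9% of its exon bases, and without a stated strand setting the reads of the pair cannot be told apart.

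H1F0 (chr22:37805093-37807436, plus strand), the linker histone known to accumulate in differentiated and slowly dividing cells, was at 159, 165 and 188 CPM with shTMLHE 1 and 192, 183 and 191 CPM with shTMLHE 2. It was at 281, 288 and 284 CPM with CCNE1 overexpression and 339, 386 and 365 CPM in control. Both hairpin groups overlapped each other and lay below CCNE1 overexpression, which lay below control. Its log2 fold change was -0.74 ± 0.05 with shTMLHE 1 (adjusted p = 6.81e-15) and -0.59 ± 0.05 with shTMLHE 2 (adjusted p = 6.66e-13). For CCNE1 overexpression minus control it was -0.35 ± 0.05 (adjusted p = 2.42e-07). On total counts the shTMLHE 2 change was -0.06 (adjusted p = 0.21) and the shTMLHE 1 change -0.34 (adjusted p = 4.36e-08). In the GC-adjusted fit the shTMLHE 2 change was -0.26 (adjusted p = 1.51e-05) and the CCNE1 change -0.16 (adjusted p = 0.00614).

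H2AFZ and H2AFV encode the 2 forms of H2A.Z, which mark promoters and enhancers. H2AFZ (chr4:99948086-99950388, minus strand), the most counted histone gene of all, was at 435, 436 and 422 CPM with shTMLHE 1 and 459, 480 and 451 CPM with shTMLHE 2. It was at 655, 598 and 608 CPM with CCNE1 overexpression and 590, 586 and 568 CPM in control. All hairpin libraries were below all others. On the log2 scale the change was -0.52 ± 0.04 with shTMLHE 1 (adjusted p = 4.99e-16) and -0.42 ± 0.04 with shTMLHE 2 (adjusted p = 1.25e-13), although on total counts the shTMLHE 1 change was -0.13 and the shTMLHE 2 change turned to 0.11 (adjusted p = 0.00564). For CCNE1 minus control it was 0.09 ± 0.04 (adjusted p = 0.0301), which was lost without CCNE1 replicate 1 (0.05, adjusted p = 0.271), without control replicate 3 (0.08, adjusted p = 0.133) and on total counts (0.07, adjusted p = 0.0948).

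H2AFV (chr7:44826791-44848083, minus strand) was at 175, 184 and 189 CPM with shTMLHE 1 and 185, 190 and 187 CPM with shTMLHE 2. It was at 165, 160 and 152 CPM with CCNE1 overexpression and 131, 129 and 128 CPM in control. The hairpin libraries were the highest and control the lowest. In the test, the log2 fold change was 0.2 ± 0.04 with shTMLHE 1 (adjusted p = 0.000103), 0.24 ± 0.04 with shTMLHE 2 (adjusted p = 4.46e-06) and 0.29 ± 0.04 for CCNE1 overexpression minus control (adjusted p = 7.17e-07). H2AFV has a GC content of 43.1%, and in the GC-adjusted fit these became -0.04 (adjusted p = 0.457), -0.36 (adjusted p = 2.8e-09) and 0.08 (adjusted p = 0.172), so the hairpin directions turned.

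H2AFX (chr11:119093854-119095467, minus strand) encodes the H2A form that is phosphorylated around DNA breaks. It was at 131, 146 and 143 CPM with shTMLHE 1 and 71.8, 86.5 and 80.5 CPM with shTMLHE 2. It was at 218, 202 and 239 CPM with CCNE1 overexpression and 195, 203 and 201 CPM in control. CCNE1 overexpression overlapped control, and each hairpin group stood apart below them. The log2 fold change was -0.65 ± 0.06 with shTMLHE 1 (adjusted p = 6.71e-10) and -1.46 ± 0.06 with shTMLHE 2 (adjusted p = 4.81e-17), and 0.14 ± 0.06 for CCNE1 overexpression minus control (adjusted p = 0.0648). The last passed without CCNE1 replicate 2 (0.2, adjusted p = 0.00767) and, at 0.14, without shTMLHE 1 replicate 1 (adjusted p = 0.0494) or shTMLHE 2 replicate 1 (adjusted p = 0.0252) or 2 (adjusted p = 0.0339). H2AFX has a GC content of 66.4%. Adjusted for GC content, the hairpin changes were -0.03 (adjusted p = 0.658) with shTMLHE 1 and 0.02 (adjusted p = 0.731) with shTMLHE 2, and CCNE1 overexpression minus control was 0.19 (adjusted p = 0.00253). On total counts the shTMLHE 1 change was -0.26 (adjusted p = 0.000634) and the shTMLHE 2 change -0.93 (adjusted p = 9.54e-13).

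H2AFJ (chr12:14774383-14778002, plus strand), whose protein H2A.J is known to build up in senescent cells, was at 21, 22.3 and 23.2 CPM with shTMLHE 1 and 16.6, 14.7 and 12.1 CPM with shTMLHE 2. It was at 57.4, 59.1 and 55.3 CPM with CCNE1 overexpression and 74.6, 93 and 82.4 CPM in control. The 4 groups did not overlap. Its fitted log2 fold change was -1.37 ± 0.09 with shTMLHE 1 (adjusted p = 1.31e-16), -1.98 ± 0.09 with shTMLHE 2 (adjusted p = 1.44e-21) and -0.54 ± 0.08 for CCNE1 overexpression minus control (adjusted p = 7.6e-07). Unlike H1FX and H2AFX, it is AT-rich (GC content 42.6%), and removing the trend made the changes -1.57, -2.53 and -0.76, each still called.

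H2AFY (chr5:135333900-135399914, minus strand) encodes macroH2A1, which carries a large extra domain and is enriched on silent chromatin. It was at 175, 169 and 165 CPM with shTMLHE 1 and 144, 148 and 145 CPM with shTMLHE 2. It was at 158, 147 and 167 CPM with CCNE1 overexpression and 152, 154 and 152 CPM in control. The hairpins stood on either side of CCNE1 overexpression and each overlapped it. On the log2 scale the change was 0.11 ± 0.04 with shTMLHE 1 (adjusted p = 0.0286), -0.11 ± 0.04 with shTMLHE 2 (adjusted p = 0.0239) and 0.04 ± 0.05 for CCNE1 overexpression minus control (adjusted p = 0.5). The shTMLHE 1 call was lost without CCNE1 replicate 2 (0.06, adjusted p = 0.262), without CCNE1 replicate 1 (adjusted p = 0.0523) and without shTMLHE 1 replicate 1 (adjusted p = 0.117) or 2 (adjusted p = 0.0562). The shTMLHE 2 call was lost without CCNE1 replicate 3 (-0.06, adjusted p = 0.224), without shTMLHE 2 replicate 1 (adjusted p = 0.0819) or 3 (adjusted p = 0.064), and turned to 0.42 on total counts. GC-adjusted, the values were -0.47 with shTMLHE 1, -1.01 with shTMLHE 2 and -0.18 for CCNE1 overexpression minus control. The genes AC026691.1 and C5orf66 overlap 30.9% of its exon bases.

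H3F3A and H3F3B encode the same protein, H3.3, which is placed into chromatin outside replication. H3F3A (chr1:226061851-226072001, plus strand) was at 158, 154 and 163 CPM with shTMLHE 1 and 161, 170 and 167 CPM with shTMLHE 2. It was at 228, 235 and 233 CPM with CCNE1 overexpression and 198, 208 and 202 CPM in control. The hairpin libraries were the lowest and those with CCNE1 overexpression the highest. In the test, the log2 fold change was -0.55 ± 0.04 with shTMLHE 1 (adjusted p = 4.46e-15) and -0.48 ± 0.04 with shTMLHE 2 (adjusted p = 8.09e-14). On total counts the shTMLHE 1 change was -0.16 and the shTMLHE 2 change turned to 0.05 (adjusted p = 0.271). After adjustment for GC content and length, the shTMLHE 2 change was -1.03 (adjusted p = 8.53e-24). For CCNE1 overexpression minus control it was 0.2 ± 0.04 (adjusted p = 0.000105), which turned to -0.1 (adjusted p = 0.0385) with that trend removed.

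H3F3B (chr17:75776434-75785893, minus strand) was at 421, 424 and 437 CPM with shTMLHE 1 and 463, 488 and 475 CPM with shTMLHE 2. It was at 462, 463 and 462 CPM with CCNE1 overexpression and 559, 559 and 565 CPM in control. Control was the highest group, and shTMLHE 1 lay below CCNE1 overexpression. The log2 fold change was -0.28 ± 0.03 for CCNE1 overexpression minus control (adjusted p = 3.85e-09), the opposite direction to H3F3A before the trend over GC was removed and the same one (-0.15 for H3F3B) after it. With shTMLHE 1 it was -0.11 ± 0.03 (adjusted p = 0.00278), which was lost under upper-quartile scaling (-0.03, adjusted p = 0.488) and turned to 0.28 on total counts. With shTMLHE 2 it was 0.04 ± 0.03 (adjusted p = 0.248), and 0.09 (adjusted p = 0.00793) with the trend removed.

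Among replication-dependent genes, HIST3H2A and HIST1H1C fell in all 3 comparisons. HIST3H2A (chr1:228456979-228457873, minus strand) encodes an H2A from the small HIST3 cluster. It was at 10.5, 10.2 and 11.9 CPM with shTMLHE 1 and 8.02, 7.58 and 7.18 CPM with shTMLHE 2. It was at 23.5, 19.7 and 17.3 CPM with CCNE1 overexpression and 45.7, 47.4 and 44.4 CPM in control. The 4 groups did not overlap. Its fitted log2 fold change was -0.89 ± 0.12 with shTMLHE 1 (adjusted p = 1.91e-08), -1.4 ± 0.12 with shTMLHE 2 (adjusted p = 2.16e-13) and -1.19 ± 0.11 for CCNE1 overexpression minus control (adjusted p = 8.28e-12). This last was the only one of the 35 tested members with a called change of at least 2-fold in that comparison, where 6.12% of all genes had one. In the GC-adjusted fit the hairpin changes were -0.39 (adjusted p = 0.00312) and -0.48 (adjusted p = 0.000424), and on total counts they were -0.5 (adjusted p = 0.000331) and -0.87 (adjusted p = 3.28e-08), for shTMLHE 1 and shTMLHE 2 in turn.

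HIST1H1C (chr6:26055787-26056428, minus strand), the gene of the linker histone H1.2, was at 7.78, 5.81 and 7.32 CPM with shTMLHE 1 and 4.07, 4.9 and 4.82 CPM with shTMLHE 2. It was at 15.2, 11.8 and 8.93 CPM with CCNE1 overexpression and 17.1, 17.7 and 20 CPM in control. The groups did not overlap. On the log2 scale the change was -0.77 ± 0.17 with shTMLHE 1 (adjusted p = 0.00014), -1.38 ± 0.17 with shTMLHE 2 (adjusted p = 5.15e-09) and -0.61 ± 0.16 for CCNE1 overexpression minus control (adjusted p = 0.00189). Adjusted for GC content, they were -0.3 (adjusted p = 0.132), -0.5 (adjusted p = 0.0127) and -0.38 (adjusted p = 0.0637). On total counts they were -0.38 (adjusted p = 0.0475), -0.85 (adjusted p = 4.17e-05) and -0.63 (adjusted p = 0.00148). The other linker genes were near the floor. HIST1H1B was called lower with shTMLHE 1 (-1.58 ± 0.63, adjusted p = 0.028) and HIST1H1E with shTMLHE 2 (-1.31 ± 0.49, adjusted p = 0.0158), and neither call held with the trend removed (adjusted p = 0.164 for HIST1H1B and 0.725 for HIST1H1E) or on total counts (adjusted p = 0.0915 and 0.14). HIST1H1B also lost its call without CCNE1 replicate 1 (adjusted p = 0.076) or 2 (adjusted p = 0.0777) and without shTMLHE 1 replicate 1 (adjusted p = 0.0698) or 3 (adjusted p = 0.142). HIST1H1E lost it without CCNE1 replicate 3 (adjusted p = 0.0909) or shTMLHE 2 replicate 2 (adjusted p = 0.0505).

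The H2B gene HIST1H2BH (chr6:26251651-26253710, plus strand) also fell in all 3 comparisons. It was at 2.96, 3.21 and 2.84 CPM with shTMLHE 1 and 2.34, 2.31 and 2.02 CPM with shTMLHE 2. It was at 6.87, 6.71 and 11 CPM with CCNE1 overexpression and 12.8, 11.1 and 12.2 CPM in control. Each group stood apart, though replicate 3 with CCNE1 overexpression came near control. In the test, the log2 fold change was -1.45 ± 0.21 with shTMLHE 1 (adjusted p = 1.91e-07), -1.87 ± 0.21 with shTMLHE 2 (adjusted p = 5.37e-10) and -0.55 ± 0.19 for CCNE1 overexpression minus control (adjusted p = 0.0187). The CCNE1 call was lost without CCNE1 replicate 1 (-0.44, adjusted p = 0.0859) or 2 (-0.42, adjusted p = 0.101) and without control replicate 1 (-0.5, adjusted p = 0.0681). HIST1H2BH has a GC content of 41.6%, and with the trend removed all 3 changes were still called, at -1.53, -2.35 and -0.81.

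HIST2H2AC (chr1:149886975-149887364, plus strand), an H2A gene of the HIST2 cluster, showed the largest fold change of the 35 tested members. It was at 0.274, 0.0553 and 0.182 CPM with shTMLHE 1 and 0.658, 0.424 and 0.224 CPM with shTMLHE 2. It was at 1.64, 3.69 and 1.77 CPM with CCNE1 overexpression and 1.74, 1.82 and 1.08 CPM in control. In counts these were 5, 1 and 3 with shTMLHE 1 and 16, 9 and 4 with shTMLHE 2, against 22, 67 and 28 with CCNE1 overexpression and 25, 23 and 13 in control. Every hairpin library was below every other library. The log2 fold change was -3.75 ± 0.6 with shTMLHE 1 (adjusted p = 9.38e-07) and -2.4 ± 0.5 with shTMLHE 2 (adjusted p = 5.93e-05). Without CCNE1 replicate 2, the library with the 67 counts, these were -3.27 (adjusted p = 3.98e-05) and -1.92 (adjusted p = 0.00264). GC-adjusted, they were -3.19 (adjusted p = 2.06e-05) and -1.2 (adjusted p = 0.0386). For CCNE1 minus control the value was 0.62 ± 0.46 (adjusted p = 0.292), and 0.14 (adjusted p = 0.862) without that library. The gene shares 30.5% of its 50-base windows with other HIST2 H2A genes.

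The H4 gene HIST1H4C (chr6:26103876-26104310, plus strand) had the same order with even fewer counts. It held 3, 1 and 3 counts with shTMLHE 1 and 9, 6 and 9 with shTMLHE 2, against 4, 49 and 15 with CCNE1 overexpression and 9, 9 and 5 in control. Most counts with CCNE1 overexpression came from replicate 2, and shTMLHE 2 overlapped that group. Its fitted log2 fold change was -3.28 ± 0.75 with shTMLHE 1 (adjusted p = 0.000249) and -1.8 ± 0.63 with shTMLHE 2 (adjusted p = 0.0101). Without CCNE1 replicate 2 the gene did not pass the filter on low counts. The shTMLHE 2 call was also lost on total counts (-1.28, adjusted p = 0.0626) and without shTMLHE 2 replicate 2 (-1.62, adjusted p = 0.0538).

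HIST1H2AC and HIST1H2AG, H2A genes of the chromosome 6 cluster, rose with both hairpins. HIST1H2AC (chr6:26124145-26139116, plus strand) was at 5.31, 5.31 and 6.48 CPM with shTMLHE 1 and 9.08, 7.35 and 8.69 CPM with shTMLHE 2. It was at 4.48, 3.41 and 1.46 CPM with CCNE1 overexpression and 5.78, 3.33 and 4.55 CPM in control. Both hairpin groups were above CCNE1 overexpression, which overlapped control. On the log2 scale the change was 0.88 ± 0.26 with shTMLHE 1 (adjusted p = 0.00331) and 1.44 ± 0.25 with shTMLHE 2 (adjusted p = 3.26e-06). Without CCNE1 replicate 3, the lowest library, the shTMLHE 1 change was 0.54 (adjusted p = 0.0479). For CCNE1 overexpression minus control it was -0.57 ± 0.27 (adjusted p = 0.086), which passed in the GC-adjusted fit (-0.81, adjusted p = 0.0168), without CCNE1 replicate 1 (-0.89, adjusted p = 0.0116) and without control replicate 2 (-0.75, adjusted p = 0.0342).

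HIST1H2AG (chr6:27133042-27135291, plus strand) was at 5.59, 4.15 and 2.91 CPM with shTMLHE 1 and 4.03, 3.44 and 3.31 CPM with shTMLHE 2. It was at 1.87, 2.15 and 1.96 CPM with CCNE1 overexpression and 1.67, 2.06 and 1.82 CPM in control. Each hairpin library was above each library without a hairpin. In the test, the log2 fold change was 1.08 ± 0.28 with shTMLHE 1 (adjusted p = 0.00103), 0.85 ± 0.28 with shTMLHE 2 (adjusted p = 0.00685) and 0.11 ± 0.31 for CCNE1 overexpression minus control (adjusted p = 0.799). On total counts the shTMLHE 2 change was 1.37 (adjusted p = 3.38e-05). The H3 gene HIST1H3E also passed with both hairpins, at 1.11 ± 0.49 with shTMLHE 1 (adjusted p = 0.0472) and 1.09 ± 0.48 with shTMLHE 2 (adjusted p = 0.0405). Its calls were lost in the GC-adjusted fit (adjusted p = 0.0701 for shTMLHE 1 and 0.183 for shTMLHE 2) and without CCNE1 replicate 1 (adjusted p = 0.184 and 0.168), and the fold changes were 1.68 and 1.67 without CCNE1 replicate 3. Leaving out any other library of the compared groups moved the adjusted p of at least 1 hairpin over 0.05, except shTMLHE 1 replicate 3.

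The nearby H2B genes HIST1H2BJ and HIST1H2BK differed between the hairpins. HIST1H2BJ (chr6:27125897-27132750, minus strand) was at 5.26, 4.26 and 4.36 CPM with shTMLHE 1 and 2.55, 1.93 and 2.69 CPM with shTMLHE 2. It was at 2.02, 1.1 and 1.65 CPM with CCNE1 overexpression and 2.58, 1.03 and 2.15 CPM in control. The shTMLHE 1 libraries were above all others, which overlapped. The log2 fold change was 1.56 ± 0.32 with shTMLHE 1 (adjusted p = 5.02e-05) and 0.61 ± 0.33 with shTMLHE 2 (adjusted p = 0.0922), and the shTMLHE 2 change passed in the GC-adjusted fit (0.84, adjusted p = 0.0242), on total counts (1.13, adjusted p = 0.00199) and without CCNE1 replicate 1 (0.8, adjusted p = 0.0426). For CCNE1 minus control it was -0.3 ± 0.35 (adjusted p = 0.512).

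HIST1H2BK (chr6:27146418-27146798, minus strand) was at 19.4, 21.3 and 17.9 CPM with shTMLHE 1 and 12.6, 10.5 and 12.3 CPM with shTMLHE 2. It was at 12.2, 18.6 and 13.9 CPM with CCNE1 overexpression and 18.6, 22.4 and 24.2 CPM in control. CCNE1 overexpression overlapped both hairpin groups, and its replicate 2 stood above the other replicates. Its fitted log2 fold change was 0.38 ± 0.13 with shTMLHE 1 (adjusted p = 0.013), which was lost without CCNE1 replicate 1 (0.26, adjusted p = 0.105) or 3 (0.32, adjusted p = 0.0559) and without shTMLHE 1 replicate 2 (0.31, adjusted p = 0.0792). On total counts it was 0.77 and in the GC-adjusted fit 0.91. With shTMLHE 2 it was -0.35 ± 0.14 (adjusted p = 0.02), which was lost without CCNE1 replicate 2 (-0.15, adjusted p = 0.326) or shTMLHE 2 replicate 2 (-0.27, adjusted p = 0.113). The shTMLHE 2 change turned to 0.74 (adjusted p = 1.19e-05) with the trend removed and to 0.18 (adjusted p = 0.234) on total counts. For CCNE1 overexpression minus control it was -0.53 ± 0.13 (adjusted p = 0.0014), and -0.3 (adjusted p = 0.0771) with the trend removed.

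HIST1H3H (chr6:27810064-27811300, plus strand), an H3 gene, was at 2.36, 1.22 and 1.88 CPM with shTMLHE 1 and 0.452, 0.707 and 0.449 CPM with shTMLHE 2. It was at 1.49, 2.42 and 1.71 CPM with CCNE1 overexpression and 0.558, 1.67 and 0.58 CPM in control. The shTMLHE 2 libraries were below those of both other groups with CCNE1. On the log2 scale the change was -1.8 ± 0.47 with shTMLHE 2 (adjusted p = 0.000916) and -0.06 ± 0.43 with shTMLHE 1 (adjusted p = 0.921). For CCNE1 minus control it was 1.02 ± 0.47 (adjusted p = 0.0777), and 1.72 (adjusted p = 0.0109) without control replicate 2, the highest control library.

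HIST1H4I (chr6:27138588-27139881, plus strand) was at 7.29, 9.18 and 4.42 CPM with shTMLHE 1 and 3.78, 3.96 and 5.22 CPM with shTMLHE 2, against 5.08, 5.72 and 4.37 CPM with CCNE1 overexpression and 8.99, 7.61 and 6.21 CPM in control. It was lower with CCNE1 overexpression than in control in every library, at -0.59 ± 0.23 (adjusted p = 0.0328). That call was lost without CCNE1 replicate 1 (adjusted p = 0.0588) or 3 (adjusted p = 0.11) and without control replicate 1 (adjusted p = 0.17) or 2 (adjusted p = 0.0632). With shTMLHE 1 HIST1H4I was at 0.46 ± 0.22 (adjusted p = 0.0719), and it passed in the GC-adjusted fit (0.68, adjusted p = 0.0091), on total counts (0.86, adjusted p = 0.00103), with upper-quartile scaling (0.55, adjusted p = 0.0328), and without CCNE1 replicate 2 (0.57, adjusted p = 0.0492) or shTMLHE 1 replicate 3 (0.7, adjusted p = 0.00753). HIST1H4E fell with shTMLHE 2 (-0.8 ± 0.35, adjusted p = 0.0357), a call that was lost without CCNE1 replicate 2 (-0.43, adjusted p = 0.31), without any of the shTMLHE 2 replicates (adjusted p = 0.0694 to 0.0972) and on total counts (-0.28, adjusted p = 0.473). HIST2H2BE rose with shTMLHE 1 (0.92 ± 0.4, adjusted p = 0.045). This was lost without CCNE1 replicate 1 (adjusted p = 0.0995) or 2 (adjusted p = 0.134), without shTMLHE 1 replicate 1 (adjusted p = 0.141) or 3 (adjusted p = 0.0826), and without any shTMLHE 2 replicate (adjusted p = 0.0538 to 0.0556). HIST1H2BD and HIST1H2BG passed in none of the 4 comparisons, with log2 fold changes from -0.03 to 0.58 and from -0.4 to 0.75. HIST1H2BD passed with shTMLHE 1 in the GC-adjusted fit (0.83, adjusted p = 0.0164) and on total counts (0.97, adjusted p = 0.00426), and HIST1H2BG passed for CCNE1 overexpression minus control without control replicate 2 (1.23, adjusted p = 0.0399).

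**Figure D5:**
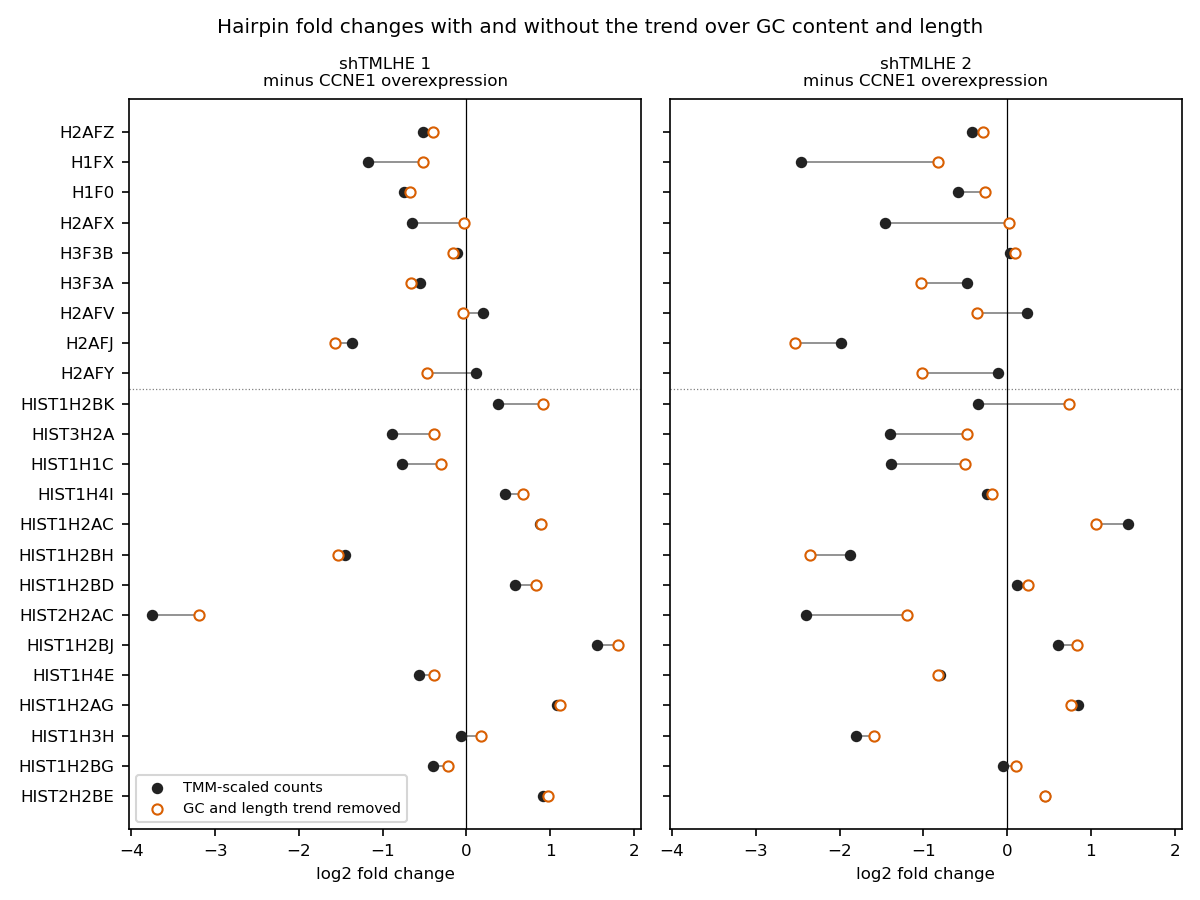
log2 fold change (x axis) of the 9 variant genes (above the dotted line) and 14 replication-dependent genes (below it) for each hairpin minus CCNE1 overexpression, from TMM-scaled counts (black) and with the trend over GC content and transcript length removed (orange rings). With shTMLHE 2, H2AFX is at -1.46 from counts and 0.02 with the trend removed, and H2AFJ at -1.98 and -2.53.

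The trend over GC content did not move the classes alike, as the plot of fold changes with and without it shows. The median GC content was 48.4% over the 26 tested replication-dependent genes and 49.1% over the variants, near the 48.9% of all tested genes. Members ranged, however, from 39.5% in HIST1H2BN to 68.6% in H1FX. Transcripts were shorter than usual, with a median of 1265.5 bases over the 26 and 2344 over the variants, against 3419 over all tested genes. With the trend removed, the replication-dependent counts from edgeR were 0 higher and 4 lower for CCNE1 overexpression minus control, 7 and 4 with shTMLHE 1, and 4 and 8 with shTMLHE 2. In the CCNE1 comparison 3 were higher at an unadjusted p under 0.05. The GC-adjusted fit with shTMLHE 2 called 26.6% of all genes higher and 36.2% lower. H1FX, H2AFJ, H1F0, H2AFZ, H3F3A, HIST3H2A, HIST1H2BH and HIST2H2AC were lower with both hairpins in this fit, and HIST1H2AC and HIST1H2AG were higher, each with an adjusted p under 0.05, although H2AFZ and H3F3A turn above 0 with shTMLHE 2 on total counts without it.

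Set against each other, the hairpins differed in 60.3% of all tested genes, 31.3% higher with shTMLHE 1 and 29% higher with shTMLHE 2. Of the 26 replication-dependent genes 6 were higher and 1 was lower with shTMLHE 1, with a median log2 difference of 0.38 beside -0.01 for all genes. Of the variants 4 were higher and 3 lower, against 3 and 5 on total counts, where 26% of all genes were higher and 35.5% lower, and 5 and 3 in the GC-adjusted fit, where 24.8% were higher and 23.4% lower. At least 2-fold, 1 gene of each class was called, beside 15.7% of all genes. H1FX differed most among the variants, at 1.28 ± 0.05 (shTMLHE 1 minus shTMLHE 2, adjusted p = 1.9e-24), and at 0.3 (adjusted p = 1.38e-08) with the trend removed. HIST1H3H differed most among the replication-dependent genes, at 1.75 ± 0.47 (adjusted p = 0.00159), with the same value when the trend was removed. H2AFX differed by 0.81 ± 0.06 (adjusted p = 2.12e-11) and by -0.05 (adjusted p = 0.461) with the trend removed. The knockdown itself differed, with TMLHE 1.03 ± 0.37 higher on the log2 scale with shTMLHE 1 (adjusted p = 0.0154). Its part in these differences was not tested.

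Genes that act on histone mRNAs or histones were counted from lists chosen for their roles, with earlier results of these data known. Of 21 tested genes for histone transcription and 3′ end processing, 5 rose and 10 fell with shTMLHE 1, and 11 rose and 6 fell with shTMLHE 2, both against CCNE1 overexpression. With CCNE1 overexpression 10 rose and 3 fell against control. Total-count scaling gave 14 higher and 4 lower with shTMLHE 1, 16 and 5 with shTMLHE 2, and 9 and 3 with CCNE1 overexpression. The GC-adjusted fit gave 3 higher and 13 lower, 6 and 10, and 7 and 3 in the same order. The balance of higher and lower genes in this list with either hairpin therefore turned with the scaling or the adjustment, beside 30.4% of all genes higher and 30.3% lower with shTMLHE 1, 36.8% and 36.2% with shTMLHE 2, and 25.1% and 19.1% with CCNE1 overexpression. MIF4GD, which bridges SLBP to translation, fell by 2.17 on the log2 scale with shTMLHE 1 (SE 0.09, adjusted p = 5.41e-22) and by 1.52 with shTMLHE 2 (SE 0.09, adjusted p = 1.42e-18). E2F1, a transcription factor of S phase entry, fell by 1.05 with shTMLHE 1 (SE 0.05, adjusted p = 9.98e-20) and by 1.93 with shTMLHE 2 (SE 0.06, adjusted p = 4.36e-28), and rose by 0.32 ± 0.05 with CCNE1 overexpression (adjusted p = 3.06e-06). CASP8AP2, also called FLASH, which works with the U7 particle in 3′ end processing, rose by 2.07 ± 0.13 with shTMLHE 2 (adjusted p = 2.12e-17). It rose by 0.8 ± 0.16 with CCNE1 overexpression (adjusted p = 9.62e-05), a change of 0.36 that was not called in the GC-adjusted fit. Before that adjustment its group means were 15.5 CPM with shTMLHE 1 and 31.6 CPM with shTMLHE 2, against 7.53 CPM with CCNE1 overexpression. Every shTMLHE 1 library was above every library with CCNE1 overexpression alone. The GC-adjusted fit put CASP8AP2 at 0.23 with shTMLHE 1 (adjusted p = 0.147) and at -0.46 for shTMLHE 1 minus shTMLHE 2. For E2F1 it gave -0.65 with shTMLHE 1 and 0.2 for shTMLHE 1 minus shTMLHE 2. SLBP itself was at 61.2 ± 0.737 CPM with shTMLHE 1 and 68.9 ± 2.57 CPM with shTMLHE 2, against 69.6 ± 2.02 CPM with CCNE1 overexpression and 57 ± 2.44 CPM in control (SD, n = 3).

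Of 30 histone chaperones and exchange factors, 10 rose and 12 fell with shTMLHE 1, 14 rose and 9 fell with shTMLHE 2, and 18 rose and 3 fell with CCNE1 overexpression. On total counts these were 20 higher and 4 lower, 21 and 5, and 18 and 4, and in the GC-adjusted fit 7 and 12, 10 and 12, and 14 and 2, so the balance with the hairpins turned here too. The shares of all tested genes higher and lower were 30.4% and 30.3%, 36.8% and 36.2%, and 25.1% and 19.1%, in the same order. Total counts called 51% of all genes higher and 16.2% lower with shTMLHE 1, and 54.1% and 22.4% with shTMLHE 2. In the GC-adjusted fit the shares were 22.4% and 33.3%, 26.6% and 36.2%, and 20.8% and 16%. ATRX, which places H3.3 at repeats, rose by 2.25 ± 0.14 with shTMLHE 1 (adjusted p = 2.39e-17) and 2.68 ± 0.13 with shTMLHE 2 (adjusted p = 2.47e-20), and by 1.22 and 1.07 in the GC-adjusted fit. MCM2, a replication helicase subunit that also holds histones, fell by 0.85 with shTMLHE 1 (SE 0.04, adjusted p = 3.26e-21) and by 1.42 with shTMLHE 2 (SE 0.04, adjusted p = 1.29e-28). VPS72, which brings H2A.Z into chromatin, fell by 1.48 with shTMLHE 2 (SE 0.06, adjusted p = 7.85e-24). NPM1, a histone-binding nucleolar protein, rose by 0.76 ± 0.03 with CCNE1 overexpression (adjusted p = 6.95e-21).

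A further list held 26 genes of S phase entry and DNA synthesis. With CCNE1 overexpression 20 rose and 2 fell, with a median log2 fold change of 0.43, beside 25.1% of all tested genes higher and 19.1% lower. With shTMLHE 1, 1 rose and 22 fell, with a median of -0.65, beside 30.4% of all genes higher and 30.3% lower. With shTMLHE 2, 7 rose and 16 fell, with a median of -0.4, beside 36.8% and 36.2%. In the GC-adjusted fit these became 0 and 23, and 4 and 18. That fit called 22.4% of all genes higher and 33.3% lower with shTMLHE 1, and 26.6% and 36.2% with shTMLHE 2. On total counts 5 were higher and 17 lower with shTMLHE 1, with a median of -0.25 beside 0.43 for all genes. With shTMLHE 2 the balance turned there to 15 higher and 9 lower, with a median of 0.13 beside 0.56 for all genes. Total counts called 51% of all genes higher and 16.2% lower with shTMLHE 1, and 54.1% and 22.4% with shTMLHE 2. MCM5, a replication helicase subunit, fell by 0.95 with shTMLHE 1 (SE 0.04, adjusted p = 1.3e-23) and by 2.08 with shTMLHE 2 (SE 0.04, adjusted p = 2.34e-34), and rose by 0.68 ± 0.04 with CCNE1 overexpression (adjusted p = 6.25e-18). CDT1, which loads that helicase, fell by 1.82 with shTMLHE 1 (SE 0.04, adjusted p = 6.79e-31) and by 2.5 with shTMLHE 2 (SE 0.04, adjusted p = 2.46e-35). In the GC-adjusted fit CDT1 was at -1.48 with shTMLHE 1. For shTMLHE 1 minus shTMLHE 2 that fit gave -0.11 (adjusted p = 0.0176), although its CPM were higher with shTMLHE 1 (152 against 94.7 CPM). The part of these S phase genes in the histone levels was not tested. Of the other histone variants, CENPA, the centromeric H3, rose by 0.33 ± 0.08 with CCNE1 overexpression (adjusted p = 0.00128). H2AFY2, the gene of macroH2A2, fell by 0.78 with shTMLHE 1 (SE 0.06, adjusted p = 3.54e-14) and by 0.86 with shTMLHE 2 (SE 0.06, adjusted p = 5.94e-16). The other 9 genes of that list, among them the oocyte and testis forms, held at most 55 counts over all libraries and were not tested.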

How the data were processed

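RNA was sequenced in 12 libraries of Ovcar8 cells, 3 per group. The deposited raw counts per gene come from reads aligned with STAR 2.6.1 to GRCh38, per the submitters' processing notes, which also name DESeq2. The sources used here do not give the read counter, strand setting or handling of multi-mapping reads. The deposited FPKM values, scaled by the authors to gene length and library size, served as an alternative. Depth was 14054101 to 21457503 counts per library, and replicates were distinct beyond sampling noise (chi-square per gene 2.09 to 5.63).

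Counts of all 58735 genes were filtered with filterByExpr and tested across all 4 groups with edgeR 4.0.16 (TMM, robust quasi-likelihood, 8 residual degrees of freedom; R 4.3.3), with Benjamini-Hochberg adjustment over 15378 genes. Alternatives used DESeq2 1.42.0, limma 3.58.1, other scalings, filters, a GC and length trend, and fits without each library.

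GENCODE 29 gave names, GC content and stem-loops. Named in full were the 9 variants and 14 replication-dependent genes chosen by count and called change; other genes are named because they were called. Members and lists were chosen with earlier results of these data known.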

Additional observations from a re-analysis of the deposited data

Results flagged for a closer look

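In a direct test of shTMLHE 1 against shTMLHE 2, 14 histone genes, among the 9 variants and 26 replication-dependent genes tested, differed between the hairpins, beside 60.3% of all tested genes, each a log2 difference (shTMLHE 1 minus shTMLHE 2) from edgeR's quasi-likelihood test. The libraries of the hairpins did not overlap except for H1F0 and HIST1H4I.

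Among variants, H1FX differed by 1.28 (adjusted p = 1.9e-24), H2AFX by 0.81 (adjusted p = 2.12e-11), H2AFJ by 0.61 (adjusted p = 1.07e-06) and H2AFY by 0.22 (adjusted p = 3.24e-05). H1F0 differed by -0.15 (adjusted p = 0.0106), H3F3B by -0.15 (adjusted p = 7.33e-05) and H2AFZ by -0.1 (adjusted p = 0.0107). H1F0 lost its call without shTMLHE 1 replicate 1 (adjusted p = 0.107) or 2 (adjusted p = 0.0602), and H2AFZ without shTMLHE 2 replicate 2 (adjusted p = 0.0829). H2AFY lost it on total counts (adjusted p = 0.0848).

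Among replication-dependent genes, HIST1H3H differed by 1.75 (adjusted p = 0.00159), HIST1H2BJ by 0.95 (adjusted p = 0.00512), HIST1H2BK by 0.73 (adjusted p = 8.45e-06) and HIST1H4I by 0.7 (adjusted p = 0.00616). HIST1H1C differed by 0.6 (adjusted p = 0.00386), HIST3H2A by 0.51 (adjusted p = 0.000555) and HIST1H2AC by -0.56 (adjusted p = 0.0362). HIST1H4I lost its call without shTMLHE 1 replicate 2 (0.45, adjusted p = 0.121). HIST1H2AC lost it without shTMLHE 1 replicate 1 (adjusted p = 0.111) or 2 (adjusted p = 0.113) and without shTMLHE 2 replicate 1 (adjusted p = 0.121) or 3 (adjusted p = 0.0907).

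With the trend over GC content and length removed, H2AFX (-0.05, adjusted p = 0.461), HIST1H2BK (0.16, adjusted p = 0.337), HIST1H1C (0.2, adjusted p = 0.387), HIST3H2A (0.09, adjusted p = 0.58) and HIST1H2AC (-0.17, adjusted p = 0.577) were no longer called, and the other 9 were.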

How the results depend on the processing

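Over 27 alternatives, of which 12 left out a library, most results kept their direction and side of the threshold. Adding a threshold of 2-fold left 1 replication-dependent gene called for CCNE1 overexpression minus control, 7 for shTMLHE 1 minus CCNE1, 9 for shTMLHE 2 minus CCNE1 and 1 between the hairpins, and 0, 2, 3 and 1 variants in the same order. Leaving out a library gave 3 to 8, 10 to 15, 8 to 15 and 5 to 7 replication-dependent genes, and 6 to 8, 8 to 9, 7 to 8 and 6 to 7 variants, in that order. The replicate numbers did not pair the libraries (correlations of same-numbered libraries -0.047 to 0.01, and 1 of 12 libraries closest to its own number). With the replicate block the counts were 5, 10, 12 and 7 replication-dependent genes and 8, 9, 8 and 7 variants, and HIST1H3H turned to 0.01 with shTMLHE 1.

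Directions turned as follows, and the cause was not tested. With the GC and length trend removed, H2AFV was at -0.04 with shTMLHE 1, -0.36 with shTMLHE 2 and 0.32 between the hairpins. H2AFX was at 0.02 with shTMLHE 2 and -0.05 between the hairpins, and H2AFY at -0.47 with shTMLHE 1 and -0.18 for CCNE1 minus control. H3F3A was at -0.1 for CCNE1 minus control and 0.37 between the hairpins, HIST1H2BD at 0.02 for CCNE1 minus control, HIST1H2BG at 0.11 and HIST1H2BK at 0.74 with shTMLHE 2, and HIST1H3H at 0.17 with shTMLHE 1. The replicate block with this trend removed gave the same turns and values, except 0.16 for HIST1H2BG, 0.75 for HIST1H2BK and 0.24 for HIST1H3H. On total counts, shTMLHE 2 gave 0.42 for H2AFY, 0.11 for H2AFZ, 0.05 for H3F3A, 0.47 for HIST1H2BG, 0.18 for HIST1H2BK and 0.29 for HIST1H4I, and shTMLHE 1 gave 0.28 for H3F3B and 0.34 for HIST1H3H. Upper-quartile scaling gave 0.06 for HIST1H2BG with shTMLHE 2 and 0.03 for HIST1H3H with shTMLHE 1.

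Leaving out a library spanned 0 only in results that had not passed the test. The ranges were -0.01 to 0.09 (H2AFY) and -0.16 to 0.1 (HIST1H2BD) for CCNE1 minus control, and -0.12 to 0.25 (HIST1H2BD) and -0.31 to 0.18 (HIST1H2BG) with shTMLHE 2. They were -0.29 to 0.18 for HIST1H3H with shTMLHE 1, and -0.03 to 0.43 (HIST1H2AG) and -0.02 to 0.48 (HIST1H4E) between the hairpins. Of the 71 replication-dependent genes, 45 were too low in counts to test. Values on the log2(FPKM + 1) scale understate changes of low genes by construction.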

Other observations

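The count table also lists 19 histone pseudogenes, of which 10 had counts and 2 passed the filter on low counts. HIST2H2BC held 31, 21 and 17 counts with shTMLHE 1 and 16, 24 and 9 with shTMLHE 2, against 4, 4 and 0 with CCNE1 overexpression and 5, 9 and 10 in control. HIST2H2BD held 13, 11 and 11 counts with shTMLHE 1 and 20, 10 and 4 with shTMLHE 2, against 9, 20 and 5 with CCNE1 overexpression and 2, 4 and 3 in control. HIST2H2BC counts were higher in every hairpin library than in any library with CCNE1 overexpression alone, and those of HIST2H2BD overlapped. These are raw counts, without scaling.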
